A study of Mus musculus and Homo sapiens with 18 samples.

Results

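The effect of deleting the Quaking gene (Qk in mouse, QKI in human) was compared gene by gene between 2 culture systems used as models of the lens, mouse NLPC and human HLE-B3. Genes were paired by symbol without regard to letter case. Of 16684 symbols present in both count tables, 88 occurred more than once in a table and were left out, and 11206 passed the filter on low counts in both systems. Those 11206 genes, out of 54838 rows in the mouse table and 60880 in the human table, are the genes described here, and 11119 of them are protein-coding in both annotations. A gene matched by symbol need not be the strict ortholog, and a gene whose mouse and human symbols differ is not among them.

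NLPC are lens progenitor-like cells derived from neural stem cells. The stem cells came from the brains of newborn Nestin-CreERT2; QkL/L mice, in which Cre recombinase acts in Nestin-expressing cells only after 4-hydroxytamoxifen. They were brought towards the lens lineage first with Noggin at 100 ng/ml and then with bFGF at 100 ng/ml, BMP4 at 20 ng/ml and BMP7 at 20 ng/ml. There were 3 libraries labelled wild type (WT) and 3 labelled Qk-/-. HLE-B3 is an immortalised line of human lens epithelial cells, grown here in medium with 20% foetal bovine serum. Its QKI knockout (QKI KO) was made with a Cas9 guide delivered by lentivirus and selected with puromycin, with 3 WT and 3 QKI KO libraries. Both comparisons therefore share the loss of the same RNA-binding protein. They differ in species, cell type, culture medium and the way the gene was removed, so that these differences cannot be told apart. The study describes its replicates as independent biological ones. Whether the WT HLE-B3 cells carried an empty vector is not given in the sources used here.

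Quaking is a member of the STAR family of RNA-binding proteins. It binds mRNA at a short element, ACUAAY, often with a second UAAY half-site nearby, and is known for its part in pre-mRNA splicing, mRNA stability, mRNA transport and circular RNA formation in glia and in other cell types.

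The targeted gene was read first. In HLE-B3, the QKI count was 19408, 19325 and 18936 normalised reads in the WT libraries and 7384, 7758 and 7565 in the QKI KO libraries, a log2 fold change of -1.34 ± 0.05 (edgeR adjusted p = 1.85e-11). The Qk count was not lower in the NLPC libraries labelled Qk-/-: it was 144301, 131844 and 137089 in WT and 194190, 166599 and 189391 in Qk-/- (log2 fold change 0.41 ± 0.09, edgeR adjusted p = 0.0270). The floxed part of Qk is 1 exon of a gene counted as a whole, so this count is a weak check of the deletion. In these counts, the direction of each NLPC comparison rests on the labels. The study itself reports, from staining and an immunoblot, that the Quaking protein was lost from the stem cells and NLPC after the deletion was induced. Normalised reads are counts divided by the library's effective size and brought to the mean effective size of the system, and ± is the standard error (SE) of the fit with 3 libraries in each group.

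Libraries held 28154202 to 68243360 counts in NLPC and 69190864 to 81384471 in HLE-B3. The second Qk-/- NLPC library had the fewest counts and the lowest mean correlation with the other NLPC libraries, 0.892 against 0.948 to 0.957, whereas the HLE-B3 libraries ranged from 0.968 to 0.970. The biological coefficient of variation was 0.411 in NLPC and 0.168 in HLE-B3, and the median SE of a log2 fold change was 0.149 and 0.0870. Of the fibre-cell genes, CRYAA and MIP were at or near 0 in both cultures. CRYAA, which encodes αA-crystallin, did not exceed 0.615 CPM (counts scaled to library size) in any NLPC library and was at 0 in all HLE-B3 libraries. MIP, the lens aquaporin, did not exceed 0.410 CPM in NLPC or 0.11 in HLE-B3. Of 20 listed lens markers, 9 passed the filter on low counts in NLPC, with Crybb1, Bfsp2 and Lim2 among them. In HLE-B3 8 passed it, with CRYGS, BFSP1 and GJA3 among them. PAX6, the eye-field transcription factor, was present in both at 80.2 to 88.0 CPM in NLPC and 127 to 155 CPM in HLE-B3. NLPC also held a high level of astrocyte markers, for which the summed level of 10 was 18468 to 22901 CPM in NLPC and 144 to 202 CPM in HLE-B3. Neural stem cell markers were high in both cultures, with a summed level of 10 of 4437 to 5630 CPM in NLPC and 2982 to 3575 CPM in HLE-B3. In NLPC, 5 of 12 neuron markers were higher in Qk-/- (sum 1273 to 1345 CPM in WT and 1601 to 1732 in Qk-/-) and 5 of 11 tested oligodendrocyte and myelin markers were lower (996 to 1133 CPM in WT and 438 to 775 in Qk-/-), with 1 higher. Of 10 astrocyte markers 3 were lower and 1 higher, and of 10 neural stem cell markers 2 were lower and 0 higher (sum 5413 to 5630 CPM in WT and 4437 to 4938 in Qk-/-). These markers were counted on the whole NLPC table, for which no share is given here. For scale, 5.69% of the 11206 matched genes were higher and 8.96% lower in NLPC at an adjusted p under 0.05. GFAP, the intermediate filament of astrocytes, was at 1264, 1550 and 1361 CPM in WT and at 598, 366 and 645 CPM in Qk-/-. In bulk libraries, fewer cells of a type and less RNA per cell cannot be told apart, and the part these markers have in the results below was not tested.

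In NLPC, 638 of the 11206 matched genes (5.69%) were called higher and 1004 (8.96%) lower after the deletion, at an adjusted p under 0.05. In HLE-B3, 2579 (23.0%) were called higher and 2383 (21.3%) lower. The 4 classes that result were of like size: 165 genes (1.47%) were higher in both systems, 248 (2.21%) lower in both, 179 (1.60%) higher in NLPC and lower in HLE-B3, and 263 (2.35%) lower in NLPC and higher in HLE-B3. Of the 855 genes called in both systems, 413 (48.3%) therefore moved the same way and 442 (51.7%) opposite ways. Read against the background, 25.9% of the genes higher in NLPC were higher in HLE-B3, where 23.0% of all genes were, and 28.1% of them were lower in HLE-B3, where 21.3% of all genes were. Of the genes lower in NLPC, 24.7% were lower and 26.2% higher in HLE-B3. With total counts in place of TMM scaling, the median log2 fold changes moved from -0.0761 to -0.0267 in NLPC and from 0.00296 to -0.0537 in HLE-B3, the share of calls that were higher from 38.9% to 45.9% and from 52.0% to 42.1%, and the share of same-direction genes from 48.3% to 52.7%. Each of the 4 shares lay above its background, and these differences were not tested. Over all 11206 genes the log2 fold changes of the systems had a Pearson r of -0.0546 and a Spearman rho of -0.0709, across genes that share libraries and are not independent. The plot of both fold changes shows the 4 classes.

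**Figure D1:**
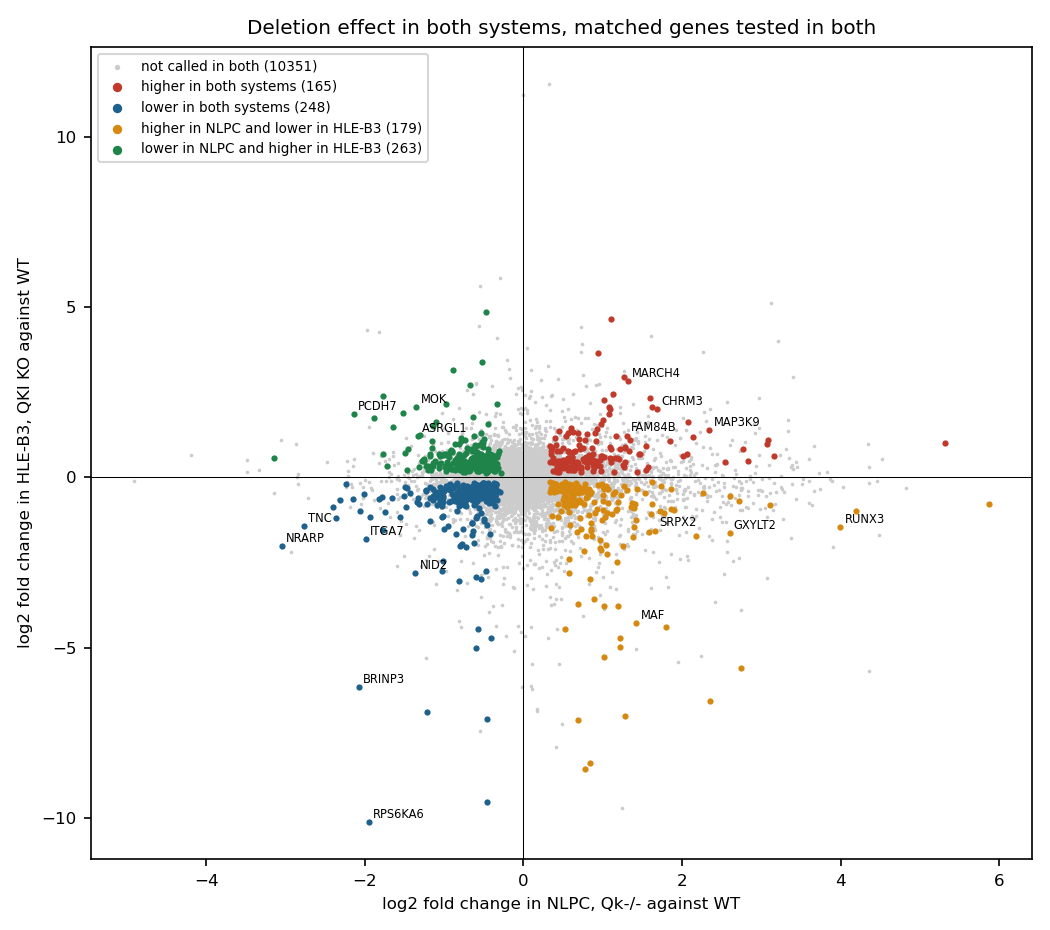
Each point is 1 of 11206 matched genes, placed by its log2 fold change in NLPC (x axis) and in HLE-B3 (y axis), and coloured where it was called in both systems. The 4 coloured classes hold 165, 248, 179 and 263 genes and fill all 4 quadrants, with a Pearson r of -0.0546 over all points.

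The counts depended on the NLPC libraries. Without the second Qk-/- NLPC library they rose to 303 higher in both, 372 lower in both, 342 higher in NLPC and lower in HLE-B3 and 437 the reverse, and these held 164, 248, 179 and 263 of the genes of the full comparison. Leaving out any other single NLPC library lowered them, to 65 to 96, 81 to 167, 62 to 108 and 59 to 168. In HLE-B3 the log2 fold changes also differed by chromosome, with medians of -0.44 on chromosome 18 (304 genes tested), -0.30 on chromosome 13 (371) and 0.23 on chromosome 4 (730) against values from -0.18 to 0.08 on the other chromosomes with 100 or more genes tested. After subtraction of the median of the 50 nearest genes, the sign changed for 350 genes called in HLE-B3.

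Among the genes higher in both systems, the 7 with the largest change in the less changed system, taken from genes whose libraries did not overlap between groups and reached a mean of 100 normalised reads in each system, were CHRM3, HHIP, CAVIN2, MAP3K9, MARCH4, ARFGEF3 and FAM84B. CHRM3 encodes a muscarinic acetylcholine receptor and HHIP a membrane protein that binds and restrains Hedgehog ligands. In normalised reads, HHIP held 157, 192 and 221 in the WT libraries and 496, 741 and 516 in the Qk-/- libraries of NLPC. HHIP counts in HLE-B3 were 1443, 1284 and 1629 in the WT libraries and 6226, 6296 and 5904 in the QKI KO libraries. The log2 fold changes of HHIP were 1.62 ± 0.22 in NLPC (edgeR adjusted p = 0.00398) and 2.08 ± 0.08 in HLE-B3 (edgeR adjusted p = 1.73e-11). The rule itself required groups that do not overlap, so that trait is no further result for the genes it names. Of all matched genes, 42.8% had no overlap in NLPC and 54.8% in HLE-B3. Of the genes called in both systems, 98.1% had no overlap in either. For CAVIN2, a coat protein of caveolae, the counts were 134, 154 and 191 in the WT libraries and 412, 367 and 672 in the Qk-/- libraries of NLPC. CAVIN2 counts in HLE-B3 were 343, 349 and 388 in the WT libraries and 1800.2, 1689.5 and 2009 in the QKI KO libraries. The log2 fold change was 1.60 ± 0.27 in NLPC and 2.35 ± 0.11 in HLE-B3. FAM84B changed by nearly the same amount in both, 1.30 ± 0.14 in NLPC and 1.23 ± 0.07 in HLE-B3. MARCH4, a membrane-bound ubiquitin ligase, rose by 1.32 in NLPC and by 2.82 in HLE-B3, and the difference was itself called (1.42 ± 0.16 in the joint fit of both systems, edgeR adjusted p = 3.61e-05). The joint fit has its own scaling, and its differences (HLE-B3 minus NLPC) were shifted by a median of -0.0843 from those of the separate fits, so that they do not equal the difference of the printed fold changes. MAP3K9, a kinase upstream of JNK, changed by 2.34 ± 0.40 in NLPC and 1.39 ± 0.10 in HLE-B3. The NLPC calls of 4 of the 7 genes held with each library left out in turn. ARFGEF3 lost its call without WT 1 (edgeR adjusted p = 0.0662), CAVIN2 without WT 1 or WT 2 (up to 0.0711) and MAP3K9 without WT 1, WT 2 or Qk-/- 1 (up to 0.0643).

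Among the genes lower in both systems, BRINP3, NRARP, RPS6KA6, ITGA7, IL17RD, TNC and NID2 led by the same rule. Tenascin-C (TNC), a matrix glycoprotein of developing and injured tissue, was abundant in both cultures. Its counts were 17372, 17990.3 and 18312 in the WT libraries and 2751, 2112 and 3004 in the Qk-/- libraries of NLPC. TNC counts in HLE-B3 were 21417, 21926 and 22234 in the WT libraries and 8146, 8891 and 7434 in the QKI KO libraries. The fall was larger in NLPC, -2.77 ± 0.14 (edgeR adjusted p = 1.42e-04) against -1.42 ± 0.06 in HLE-B3 (edgeR adjusted p = 7.75e-11), with a called difference of 1.27 ± 0.13 in the joint fit. NID2, a nidogen that links laminin and collagen IV in basement membranes, held 1466, 1199 and 1273 in the WT libraries and 606, 394 and 524 in the Qk-/- libraries of NLPC. NID2 counts in HLE-B3 were 2089.7, 2177 and 2303 in the WT libraries and 415, 312 and 212 in the QKI KO libraries. ITGA7, an integrin subunit that binds laminin, fell in both by like amounts, -1.98 ± 0.36 in NLPC and -1.82 ± 0.16 in HLE-B3. So did IL17RD, an inhibitor of FGF receptor signalling, with -1.77 ± 0.11 in NLPC and -1.56 ± 0.32 in HLE-B3. NRARP, a target of Notch that dampens Notch signalling, held 278, 469 and 420.1 in the WT libraries and 71.6, 20.3 and 45.5 in the Qk-/- libraries of NLPC. NRARP counts in HLE-B3 were 704, 726 and 713 in the WT libraries and 159, 178 and 189 in the QKI KO libraries. Its log2 fold changes were -3.05 ± 0.44 (edgeR adjusted p = 0.00472) and -2.03 ± 0.15 (edgeR adjusted p = 2.17e-08), the largest fall of the 7 in NLPC. BRINP3, a neural gene, fell to 6, 1.1 and 6 normalised reads in the QKI KO libraries from 312 to 337 in WT, and to 196 to 251 in Qk-/- from 853 to 1011 in the NLPC WT libraries. RPS6KA6, a kinase of the RSK family, was at 0 in all 3 QKI KO libraries against 135 to 143 normalised reads in WT, so that it was at least 46.8-fold lower in HLE-B3 (floor of 3 counts in a library), and its log2 fold change in NLPC was -1.95 ± 0.20. All 7 but ITGA7 kept their NLPC call with each library left out, and ITGA7 lost it without WT 1 or WT 3 (edgeR adjusted p up to 0.103).

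**Figure D2:**
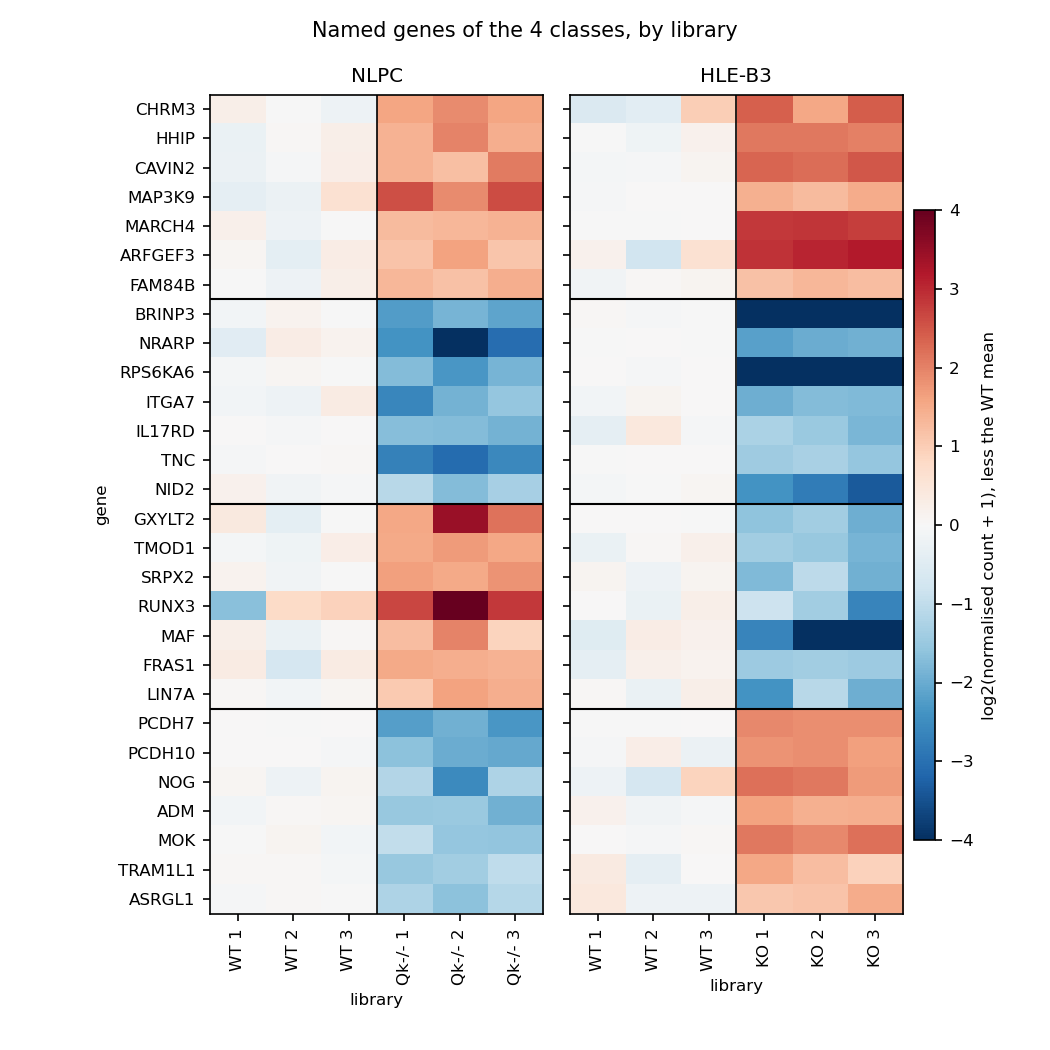
Rows are the 28 genes named for the 4 classes, in blocks of 7 from the top: higher in both, lower in both, higher in NLPC and lower in HLE-B3, lower in NLPC and higher in HLE-B3. Columns are the 12 libraries, and colour is log2(normalised count + 1) less the WT mean of the system, from -4 (blue) to 4 (red); the second Qk-/- library is the extreme one for NRARP, GXYLT2, RUNX3 and NOG.

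Of the genes higher in NLPC and lower in HLE-B3, the 7 leading ones were GXYLT2, TMOD1, SRPX2, RUNX3, MAF, FRAS1 and LIN7A. MAF, a transcription factor that drives crystallin genes in the lens, held 2054, 1469 and 1814 in the WT libraries and 4172, 6919.6 and 3254 in the Qk-/- libraries of NLPC. MAF counts in HLE-B3 were 108, 187 and 169 in the WT libraries and 23.1, 0 and 0 in the QKI KO libraries. Its log2 fold change was 1.42 ± 0.27 in NLPC (edgeR adjusted p = 0.0142) and -4.29 ± 0.79 in HLE-B3 (edgeR adjusted p = 4.42e-04), and the joint fit gave a difference of -5.80 ± 0.78. TMOD1, tropomodulin 1, caps actin filaments and is a component of the lens fibre membrane skeleton. Its counts were 196, 184 and 253 in the WT libraries and 604, 684 and 608 in the Qk-/- libraries of NLPC. TMOD1 counts in HLE-B3 were 184, 225 and 256 in the WT libraries and 83.4, 76.8 and 59.3 in the QKI KO libraries. The changes were of like size and opposite sign, 1.58 ± 0.18 in NLPC and -1.60 ± 0.26 in HLE-B3. FRAS1, a basement membrane protein mutated in Fraser syndrome, changed likewise, by 1.40 ± 0.24 and -1.46 ± 0.13. SRPX2 changed by 1.65 ± 0.17 and -1.56 ± 0.36, and LIN7A, a scaffold of cell polarity, by 1.38 ± 0.20 and -1.75 ± 0.33. RUNX3 and GXYLT2 were highest in 1 library. RUNX3, a RUNX transcription factor, held 606 normalised reads in the second Qk-/- library and 84.2 and 94.6 in the others, and GXYLT2 held 249 against 65.8 and 102. Their NLPC calls held without that library, and were lost without WT 1, 2 or 3 or, for RUNX3, Qk-/- 1 and, for GXYLT2, Qk-/- 3 (edgeR adjusted p up to 0.147 and 0.153), and GXYLT2 was not called with replicate number as a block (0.0626). MAF lost its NLPC call without any 1 of the WT libraries (up to 0.0818), and its HLE-B3 change was not called by DESeq2.

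The genes lower in NLPC and higher in HLE-B3 were led by PCDH7, PCDH10, NOG, ADM, MOK, TRAM1L1 and ASRGL1. PCDH7 and PCDH10 are protocadherins, which mediate contact between cells. For PCDH7 (mouse chr5:57717967-58133230, GRCm38; human chr4:30721991-31148427, GRCh37) the counts were 1411, 1378 and 1416 in the WT libraries and 307, 369 and 281 in the Qk-/- libraries of NLPC. PCDH7 counts in HLE-B3 were 1448, 1458 and 1489 in the WT libraries and 5504, 5282 and 5302 in the QKI KO libraries. The log2 fold changes of PCDH7 were -2.14 ± 0.14 in NLPC (edgeR adjusted p = 2.42e-04) and 1.87 ± 0.07 in HLE-B3 (edgeR adjusted p = 4.46e-12). PCDH10 followed the same course with 5162, 5224 and 4983 in the WT libraries and 1637, 1285 and 1228 in the Qk-/- libraries of NLPC. PCDH10 counts in HLE-B3 were 822, 1025 and 723 in the WT libraries and 2939, 3087 and 2656 in the QKI KO libraries, or -1.89 ± 0.13 and 1.76 ± 0.11 on the log2 scale. NOG encodes Noggin, the BMP antagonist that was also added to the medium in the first step of NLPC culture. It held 1298, 1069.8 and 1324 in the WT libraries and 540.1, 210.1 and 522 in the Qk-/- libraries of NLPC. NOG counts in HLE-B3 were 41.5, 29.3 and 88.3 in the WT libraries and 225, 207 and 158 in the QKI KO libraries. The difference of its effects in the joint fit was 3.35 ± 0.52 (edgeR adjusted p = 3.95e-04). ADM, the vasodilator peptide adrenomedullin, changed by -1.65 ± 0.25 and 1.49 ± 0.09, and ASRGL1, an asparaginase, by -1.33 ± 0.13 and 1.22 ± 0.23. PCDH7, PCDH10 and ASRGL1 kept their NLPC call with each library left out. ADM lost it without WT 3 (edgeR adjusted p = 0.0565), MOK without WT 1 or WT 3 (up to 0.0505), and NOG and TRAM1L1 without any 1 of the WT libraries or Qk-/- 1 (up to 0.114 and 0.108). Of 5 matched lens markers, 1 was higher and 1 lower in NLPC, and 1 was higher and 3 lower in HLE-B3, with medians of 0.03 and -1.06. CRYAB, which encodes αB-crystallin, was the lens marker that belonged here, so its rise in HLE-B3 does not stand for the list. It held 3306, 3781 and 3395 in the WT libraries and 1595, 630.4 and 1579 in the Qk-/- libraries of NLPC. CRYAB counts in HLE-B3 were 41969.6, 40572 and 35309 in the WT libraries and 73469, 64349 and 74790.5 in the QKI KO libraries, with changes of -1.45 ± 0.31 (edgeR adjusted p = 0.0232) and 0.85 ± 0.07 (edgeR adjusted p = 7.69e-08). Its NLPC call was lost without any 1 of the WT libraries or Qk-/- 1 (edgeR adjusted p up to 0.107). The 50 nearest tested genes had a median log2 fold change in HLE-B3 of 0.61 for CRYAB and 0.45 for TRAM1L1.

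Whether the effects differed was tested directly, as the interaction of deletion and system in 1 fit over all 12 libraries. The difference was called for 3842 genes (34.3%), of which 1914 (17.1%) had an HLE-B3 effect above the NLPC effect and 1928 (17.2%) one below it. All 442 genes of opposite direction were among them. That was close to fixed beforehand, since they were defined by opposite calls in the same libraries, and it is no further evidence. Of the 413 genes of the same direction, 158 (38.3%) were among them. Of the 3842 genes, 2101 were called by themselves only in HLE-B3, 581 only in NLPC, 600 in both and 560 in neither. A limma fit with a weight for each system called 3515 of the same genes. In simulated counts, 100 matched genes were given a true difference, not all of them among the 11007 genes tested. From these counts the joint edgeR fit called 101, of which 23 had no true difference. On those counts its calls held more errors than the threshold of 0.05 implies. On the same counts limma called 93, of which 16 had no true difference, and the separate fits 105, of which 26 had none. The simulation held far fewer true differences than the 3842 genes called in the data, so its share of errors need not apply to them.

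The 5 genes with the largest fitted and called difference in each direction, under the same minimum of 100 normalised reads, owed most of it to HLE-B3. There, 6 of the 10 were at or near 0 in 1 group, so that their fitted difference is no bound and their rank is not fixed. NCAM2, a neural cell adhesion molecule, was at 0 in the WT HLE-B3 libraries and at 270.4, 363 and 276 normalised reads in QKI KO, at least 101-fold higher, whereas it held 9659, 7969 and 8796 in the WT libraries and 8916, 9244 and 8166 in the Qk-/- libraries of NLPC. ZFP28, a zinc finger gene, was also at 0 in WT HLE-B3 and held 324, 422 and 395 in QKI KO, at least 127-fold higher, with 0.32 ± 0.12 in NLPC. IL18, a cytokine of the interleukin-1 family, went from 94.7, 58.6 and 86.2 to 4643, 4949 and 4387 normalised reads (log2 fold change 5.86 ± 0.13), and its NLPC value of -0.29 ± 0.21 was not called. ARRDC4, an arrestin-like protein induced by glucose, rose by 4.86 in HLE-B3 while it fell by 0.47 in NLPC. PPP2R2B, a regulatory subunit of protein phosphatase 2A in brain, rose by 4.44 in HLE-B3. In the other direction, CRTAC1, a secreted cartilage protein, was at 0 in all QKI KO libraries against 159.6, 72.7 and 81.1 in WT (at least 34.8-fold lower). WNK3, a kinase that controls chloride transport, had 2 counts over the QKI KO libraries and 1875 over WT (ratio 893, 95% counting interval 247 to 7378), and NRN1, neuritin, had 1 and 489 (ratio 466, interval 83.2 to 18431). CPNE8, a copine, fell to 1 to 2.1 normalised reads from 687 to 706 in HLE-B3 and rose by 0.78 in NLPC. RPS6KA6, described above, completed the 5. With the replicate block the NLPC changes of ARRDC4 and NRN1 were not called (edgeR adjusted p = 0.0780 and 0.0526), and that of ARRDC4 was not called with total counts. The NLPC calls of ARRDC4, NRN1 and WNK3 were each lost without any 1 library except Qk-/- 2 (up to 0.187, 0.139 and 0.1). Of the matched genes, 6 had at most 3 counts over 1 group of HLE-B3 and a mean of 100 normalised reads or more in the other, and 0 did so in NLPC.

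**Figure D3:**
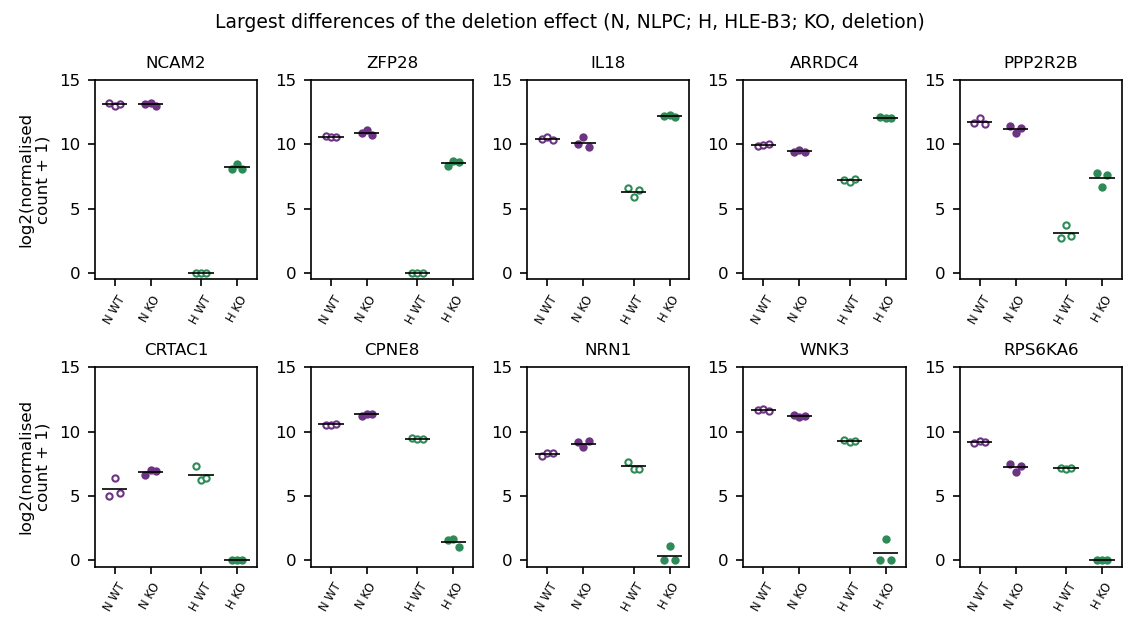
Each panel shows 1 of the 10 genes with the largest fitted and called difference in deletion effect, for NLPC on the left and HLE-B3 on the right. The y axis is log2(normalised count + 1), with a point for each library (open, WT, and filled, deletion) and a line at the group mean. The HLE-B3 groups lie 4 or more log2 units apart in all 10 panels, while the NLPC groups lie within 2.

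Gene lists were described by their counts, to be read against the shares of all matched genes given above, and no list was tested as a set. In Notch signalling, through which neighbouring cells restrain each other's differentiation, lower members outnumbered higher ones in both systems. Of 21 matched members, 8 were called lower and 1 higher in NLPC, 9 lower and 1 higher in HLE-B3, and 4 were lower in both: NRARP, NOTCH3, a receptor, and HEY1 and HEY2, transcriptional repressors that Notch induces. HEY1 changed by -0.81 in NLPC and -0.84 in HLE-B3, HEY2 by -1.48 in NLPC and -0.86 in HLE-B3, and NOTCH3 by -0.75 in NLPC and -0.80 in HLE-B3. The ligand JAG1 went apart, with counts of 871, 762 and 857 in the WT libraries and 1661, 1803 and 1537 in the Qk-/- libraries of NLPC. JAG1 counts in HLE-B3 were 49248, 50055 and 49395 in the WT libraries and 34286, 36859 and 33208 in the QKI KO libraries (log2 fold changes 1.00 ± 0.12 and -0.51 ± 0.05). The list median was -0.34 in NLPC and -0.36 in HLE-B3, where the medians of all matched genes were -0.08 and 0.00. Gene by gene, the log2 fold change had the same sign in both systems for 10 of the 21 members, and for 46.4% of all matched genes. The list average of every deletion library lay below that of every WT library, from -1.21 to -0.54 in Qk-/- and from -0.31 to -0.30 in QKI KO on the log2 scale relative to WT. In the same Qk-/- libraries the averages of the matched astrocyte markers were -1.05, -1.59 and -0.94 and those of the matched neural stem cell markers -0.63, -1.31 and -0.73, and their part in the Notch result was not tested. In HLE-B3 the 50 nearest genes of HEY1 had a median of -0.30. In NLPC, the call of NOTCH3 was lost without at least 1 of WT 1, WT 3, Qk-/- 1 or Qk-/- 3 (edgeR adjusted p up to 0.16).

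Of interferon-stimulated genes, the antiviral programme, more were likewise lower than higher in both. Of 25 members, 7 were lower and 0 higher in NLPC, 14 lower and 1 higher in HLE-B3, and 3 were lower in both. These were IFIT3 (-2.15 in NLPC and -0.62 in HLE-B3), IFI44 (-1.05 in NLPC and -0.53 in HLE-B3) and XAF1 (-0.81 in NLPC and -3.05 in HLE-B3), while IFIT1, which binds viral RNA, fell in NLPC (-1.49) and rose in HLE-B3 (0.72). The medians were -0.60 and -0.53, and the NLPC median ranged from -0.63 to -0.24 over the alternatives. Of 13 antigen presentation genes, 9 were lower and 0 higher in HLE-B3, but 3 were higher and 2 lower in NLPC, and TAPBP (0.36 in NLPC and -1.13 in HLE-B3), which loads peptides onto class I molecules, TAP2 (0.50 in NLPC and -0.68 in HLE-B3), the peptide transporter, and NLRC5 (0.72 in NLPC and -1.19 in HLE-B3), the transcriptional activator of class I genes, were higher in NLPC and lower in HLE-B3. The NLPC median of this list changed sign with the scaling (-0.02, against 0.03 with total counts). The complement component C3 was higher in NLPC and lower in HLE-B3, at 10492, 9400 and 11179 in the WT libraries and 26484, 22429 and 23538 in the Qk-/- libraries of NLPC. C3 counts in HLE-B3 were 2984, 3377 and 2994 in the WT libraries and 117, 76.8 and 99.6 in the QKI KO libraries. The NLPC call of TAPBP, NLRC5, TAP2, IFI44, IFIT3 and XAF1 was lost without at least 1 of WT 1, WT 2, WT 3, Qk-/- 1 or Qk-/- 3 (edgeR adjusted p up to 0.264, for TAPBP). With the replicate block, TAPBP, TAP2 and NLRC5 were not called in NLPC either (edgeR adjusted p = 0.0693, 0.0509 and 0.0846). In HLE-B3, the call of XAF1 and IFIT1 was lost without at least 1 of WT 2 or QKI KO 1 (edgeR adjusted p up to 0.0618, for XAF1).

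In the growth factor lists, shared rises outnumbered shared falls, by small counts. IL17RD, named above as lower in both systems, is on none of these lists. Of 22 genes of FGF and MAPK feedback, 8 were higher and 4 lower in NLPC, 9 higher and 6 lower in HLE-B3, and 5 were higher in both. SPRY1, an inhibitor of receptor tyrosine kinases, changed by 0.80 in NLPC and 1.26 in HLE-B3, DUSP6, the phosphatase of ERK, by 0.63 in NLPC and 1.34 in HLE-B3, ETV5, a transcription factor downstream of FGF, by 1.11 in NLPC and 0.53 in HLE-B3, and the receptor FGFR2 by 0.49 in NLPC and 0.50 in HLE-B3. FGFR1 was higher in NLPC and lower in HLE-B3 (0.61 in NLPC and -0.82 in HLE-B3) and FGFR3 lower in both (-0.89 in NLPC and -0.30 in HLE-B3). The HLE-B3 call of FGFR3 was lost without any 1 library except WT 1. It was also lost with DESeq2, with RLE size factors and with the replicate block (edgeR adjusted p = 0.0524). In Wnt signalling, 4 of 28 members were higher in both, namely the receptors FZD4 (0.92 in NLPC and 1.08 in HLE-B3), FZD6 (2.83 in NLPC and 0.47 in HLE-B3) and FZD7 (0.79 in NLPC and 0.61 in HLE-B3) and the secreted antagonist SFRP1 (0.60 in NLPC and 1.45 in HLE-B3), and FZD3 was lower in both (-0.42 in NLPC and -1.67 in HLE-B3). Over the Wnt list, 7 members were higher and 2 lower in NLPC, and 11 higher and 7 lower in HLE-B3. The log2 fold change had the same sign in both systems for 14 of the 28. The HLE-B3 effect was called above the NLPC effect for 1 member and below it for 12. The Wnt median was 0.38 in NLPC and 0.02 in HLE-B3, the latter with the opposite sign (-0.04) with total counts. In BMP and TGF-β signalling, 3 of 33 were higher in both, TGFBR2 (1.57 in NLPC and 0.31 in HLE-B3), TGFB2 (0.64 in NLPC and 0.23 in HLE-B3) and SMAD9 (0.88 in NLPC and 0.36 in HLE-B3), and 3 were lower in NLPC and higher in HLE-B3, NOG, TGFBR1 (-0.50 in NLPC and 1.13 in HLE-B3) and BMPR1B (-1.01 in NLPC and 0.65 in HLE-B3). The difference was called for 20 of the 33, with the HLE-B3 effect below the NLPC effect in 14. IGFBP4 (1.08 in NLPC and 2.08 in HLE-B3) and IGFBP3 (0.93 in NLPC and 1.43 in HLE-B3), which bind insulin-like growth factors, were higher in both. In HLE-B3 the 50 nearest genes had medians of -0.54 for FGFR1, 0.58 for FZD4, 0.20 for FZD7 and 0.43 for BMPR1B. Left-out libraries mattered in NLPC, where the call of DUSP6, TGFB2, SFRP1, TGFBR1, FGFR1, FGFR2, SPRY1, FZD3, IGFBP3, IGFBP4 and SMAD9 was lost without at least 1 of WT 1, WT 2, WT 3, Qk-/- 1 or Qk-/- 3 (edgeR adjusted p up to 0.191, for DUSP6).

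Of 21 matched collagen genes, 4 were higher and 3 lower in NLPC, whereas 13 were lower and 4 higher in HLE-B3, and 4 were higher in NLPC and lower in HLE-B3: COL6A1 (0.67 in NLPC and -1.59 in HLE-B3), COL6A2 (0.97 in NLPC and -1.84 in HLE-B3), COL4A2 (1.02 in NLPC and -0.34 in HLE-B3) and COL5A1 (1.27 in NLPC and -0.26 in HLE-B3). COL11A1 went the other way (-0.64 in NLPC and 1.78 in HLE-B3) and COL5A2 was lower in both (-1.47 in NLPC and -0.32 in HLE-B3). COL4A2 lies on human chromosome 13, where the median of its 50 nearest tested genes was -0.48, below its own value. The collagen average was 0.27, 1.13 and 0.16 in the Qk-/- libraries, with WT libraries up to 0.19, and -0.24 to -0.20 in QKI KO. Matched fibroblast and mural cell markers had medians of 1.38 in NLPC and -0.28 in HLE-B3, and the summed level of all listed ones was 9.61 to 9.98 CPM in WT and 15.79 to 17.98 CPM in Qk-/-, and 5540 to 5608 CPM in WT and 4679 to 4926 CPM in QKI KO. Their part in the collagen result was not tested. The difference was called for 15 of 21, and the HLE-B3 effect was the lower one in 12. Of 23 matrix glycoproteins and growth factor binders, 5 were lower in both, among them TNC, NID2, FBLN2 (-1.01 in NLPC and -1.13 in HLE-B3) and SPARC (-0.94 in NLPC and -0.72 in HLE-B3), a collagen-binding glycoprotein with counts of 74422, 77458 and 71603 in the WT libraries and 42032, 33508 and 41017 in the Qk-/- libraries of NLPC. SPARC counts in HLE-B3 were 118929, 117133 and 109513 in the WT libraries and 71319, 65959 and 72329.6 in the QKI KO libraries. The neuron marker SNAP25, a protein of synaptic vesicle fusion, rose in NLPC, from 8.7, 26.8 and 8.6 to 994, 638 and 785 normalised reads, and fell by 0.77 in HLE-B3. Among the NLPC calls, that of COL5A2, COL4A2, COL6A1, COL11A1 and FBLN2 was lost without at least 1 of WT 1, WT 2, WT 3, Qk-/- 1 or Qk-/- 3 (edgeR adjusted p up to 0.18, for COL5A2).

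Genes of protein synthesis and energy metabolism differed between the systems by many small changes. Cytosolic ribosomal proteins were called higher in 47 of 77 members and lower in 0 in HLE-B3, where 23.0% of all matched genes were called higher. In NLPC 2 were lower and 0 higher, and of 77 mitochondrial ribosomal proteins 4 were lower. Neither list was called lower in NLPC more often than all matched genes (8.96%). The log2 fold change of cytosolic ribosomal proteins was above 0 for 70 of 77 in HLE-B3 and below 0 for 71 of 77 in NLPC. Their medians were 0.19 and -0.26, where those of all matched genes were 0.00 and -0.08. The difference was called for 37 genes, all with the HLE-B3 effect above the NLPC effect, and for 34 and 0 with total counts in place of the TMM scaling. Mitochondrial ribosomal proteins (25 of 77 called above, 0 below), subunits of oxidative phosphorylation (29 of 63 above, 1 below), the proteasome (17 of 41 above, 2 below) and the integrated stress and unfolded protein response (14 of 31 above, 2 below) also had more members above than below. Among the members called in both systems, NDUFB6 (-0.51 in NLPC and 0.89 in HLE-B3) and UQCR10 (-0.78 in NLPC and 0.49 in HLE-B3) belong to respiratory complexes I and III, PSMD11 (-0.48 in NLPC and 0.36 in HLE-B3) to the proteasome lid, and PSAT1 (-0.62 in NLPC and 0.50 in HLE-B3) makes serine under the control of ATF4. In NLPC the average of these lists was lowest in the second Qk-/- library and nearest to WT in Qk-/- 3. For cytosolic ribosomal proteins it was -0.25, -0.48 and -0.06 in the Qk-/- libraries relative to WT, whose own libraries ranged from -0.10 to 0.06, so that Qk-/- 3 lay within the WT range. Without the second Qk-/- library the NLPC median was -0.16, and the difference was called for 40 genes above and 1 below. As to NLPC, the call of NDUFB6, PSMD11, UQCR10 and PSAT1 was lost without at least 1 of WT 1, WT 2, WT 3, Qk-/- 1 or Qk-/- 3 (edgeR adjusted p up to 0.222, for NDUFB6). The replicate block gave NDUFB6 an edgeR adjusted p of 0.0632. In HLE-B3 the 50 nearest genes of PSMD11 had a median of 0.15.

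Of 38 cell cycle genes of G2/M and mitosis, 13 were lower and 0 higher in NLPC, 14 were higher and 5 lower in HLE-B3, and 5 were lower in NLPC and higher in HLE-B3, among them MAD2L1 (-0.54 in NLPC and 0.68 in HLE-B3), a spindle checkpoint protein, AURKA (-0.62 in NLPC and 0.57 in HLE-B3), a mitotic kinase, CCNA2 (-0.41 in NLPC and 0.54 in HLE-B3), cyclin A2, and TOP2A (-0.39 in NLPC and 0.39 in HLE-B3), topoisomerase II. The difference was called for 23 of 38, in 22 with the HLE-B3 effect above. Of 44 genes of G1/S and DNA replication, 4 were lower and 0 higher in NLPC, 15 were higher and 2 lower in HLE-B3, and the difference was called for 14, all above. The 4 lower in NLPC are near the share of all matched genes, 8.96%. Among all matched genes, 23.0% were higher in HLE-B3, and for 17.1% the difference was called above. RRM2, which makes deoxyribonucleotides, changed by -1.06 in NLPC and 0.28 in HLE-B3. The average of the G2/M list was -0.48 to -0.34 in the Qk-/- libraries relative to WT and 0.08 to 0.14 in the QKI KO libraries, outside the WT range in each system. The 50 nearest genes of MAD2L1 and CCNA2, both on human chromosome 4, had medians of 0.45 and 0.41 in HLE-B3, and those of AURKA and TOP2A 0.32 and 0.28. On leaving out libraries, the NLPC call of CCNA2, MAD2L1, AURKA, TOP2A and RRM2 was lost without at least 1 of WT 1, WT 2, WT 3, Qk-/- 1 or Qk-/- 3 (edgeR adjusted p up to 0.21, for CCNA2). The replicate block gave AURKA and CCNA2 edgeR adjusted p-values of 0.0570 and 0.0683.

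**Figure D4:**
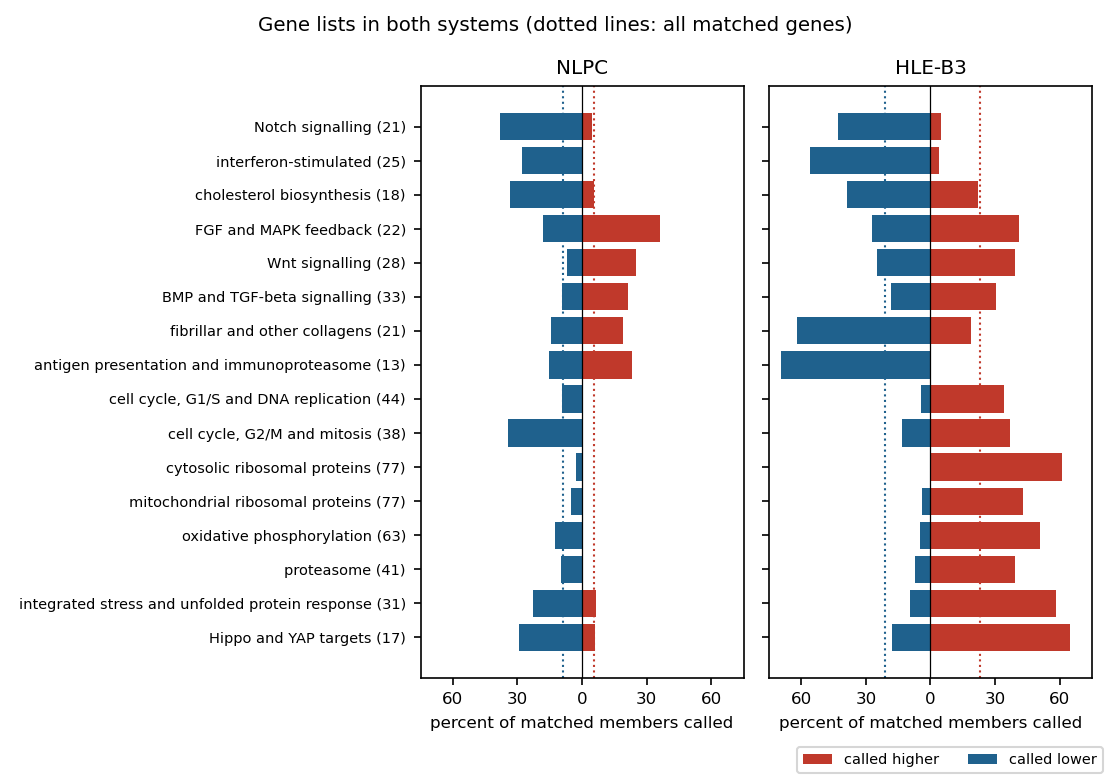
Bars give the percent of the matched members of 16 gene lists (number of members in parentheses) called higher (red, right) or lower (blue, left) after the deletion in NLPC and in HLE-B3, and dotted lines give the percent of all matched genes. Notch and interferon-stimulated genes extend to the left in both panels, and ribosomal, respiratory and cell cycle genes extend to the right in HLE-B3 only.

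Cholesterol biosynthesis, a pathway the study followed in both systems, was lower in part. Of 18 matched genes, 6 were lower and 1 higher in NLPC, 7 lower and 4 higher in HLE-B3, and 4 were lower in both, among them HMGCS1, MVD and MSMO1. The log2 fold change was below 0 for 14 of 18 in NLPC and 11 of 18 in HLE-B3. HMGCS1, which makes HMG-CoA at the entry of the pathway (mouse chr13:119690379-119708260, GRCm38; human chr5:43287572-43313614, GRCh37), held 76485, 78356 and 71173 in the WT libraries and 40839.9, 40992 and 42109 in the Qk-/- libraries of NLPC. HMGCS1 counts in HLE-B3 were 11823, 9947 and 11591 in the WT libraries and 6818, 6875 and 6839 in the QKI KO libraries. Its log2 fold change was -0.87 ± 0.08 in NLPC (edgeR adjusted p = 6.64e-04) and -0.70 ± 0.07 in HLE-B3 (edgeR adjusted p = 5.65e-07). MSMO1, a C4 demethylase, changed by -0.61 in NLPC and -0.45 in HLE-B3, and MVD, mevalonate diphosphate decarboxylase, by -1.04 in NLPC and -0.38 in HLE-B3. Further genes were called in 1 system: NSDHL (-0.49 in NLPC and 0.11 in HLE-B3) and SC5D (-0.53 in NLPC and -0.06 in HLE-B3) were lower in NLPC, FDFT1 (-0.27 in NLPC and -0.74 in HLE-B3), HSD17B7 (0.18 in NLPC and -0.27 in HLE-B3) and SQLE (0.22 in NLPC and -0.24 in HLE-B3) were lower in HLE-B3, PMVK (-0.31 in NLPC and 0.50 in HLE-B3), TM7SF2 (-0.49 in NLPC and 0.64 in HLE-B3) and FDPS (-0.46 in NLPC and 0.19 in HLE-B3) were higher in HLE-B3, and EBP (0.66 in NLPC and -0.11 in HLE-B3) was higher in NLPC. IDI1 (0.01 in NLPC and -0.14 in HLE-B3), LSS (-0.39 in NLPC and 0.16 in HLE-B3), DHCR7 (-0.31 in NLPC and 0.05 in HLE-B3) and MVK (-0.35 in NLPC and -0.20 in HLE-B3) were called in neither. The difference was called for 9 of the 18, with the HLE-B3 effect above in 5 and below in 4. The NLPC average of the list was -0.60 in the second Qk-/- library and -0.21 and -0.18 in the others. INSIG1, which retains the SREBP escort protein in the endoplasmic reticulum and is itself induced by SREBP2, was higher in NLPC and lower in HLE-B3 (0.43 in NLPC and -1.15 in HLE-B3), and INSIG2 was higher in both (0.75 in NLPC and 0.87 in HLE-B3). They were the 2 of 11 matched genes of SREBP control called higher in NLPC, where 1 was lower. In HLE-B3, 1 of the 11 was higher and 4 were lower, and 1 was lower in both systems. Of these NLPC calls, that of INSIG1, MVD, EBP, INSIG2, NSDHL and SC5D was lost without at least 1 of WT 1, WT 2, WT 3, Qk-/- 1 or Qk-/- 3 (edgeR adjusted p up to 0.185, for INSIG1). In HLE-B3, the call of HSD17B7, FDPS, PMVK, TM7SF2 and SQLE was lost without at least 1 of WT 1, WT 2, WT 3, QKI KO 1, QKI KO 2 or QKI KO 3 (edgeR adjusted p up to 0.173, for HSD17B7). FDPS was not called in HLE-B3 with total counts, nor with the replicate block (edgeR adjusted p = 0.052). The 50 nearest genes in HLE-B3 had medians of 0.37 for FDPS, which is above its own change, and for PMVK, 0.33 for HSD17B7, 0.18 for SQLE, -0.37 for FDFT1 and -0.23 for MVD.

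The element that Quaking binds was then sought in the 3′ untranslated region (3′UTR) of 1 transcript for each gene, as ACTAAC or ACTAAT on the transcribed strand (the letters of the DNA). A pair was counted where 1 of these elements was followed or preceded, within 1 to 20 bases, by the half-site TAAC or TAAT. These are matches of letters and not measured binding sites. The following 10 pairs, the first of each 3′UTR, were chosen after the values were seen, from genes with a pair in both species, to show what a match looks like, with the element and the half-site in capitals. CPT1A, which admits fatty acids to mitochondria, HMGCS1, and IPO5, an importin, were lower in both systems (CPT1A -0.75 in NLPC and -0.51 in HLE-B3, IPO5 -0.64 in NLPC and -0.65 in HLE-B3). SLC7A11, the cystine transporter (-0.46 in NLPC and 0.42 in HLE-B3), and FRAS1 changed in opposite directions. The NLPC call of SLC7A11 was lost without any 1 library except Qk-/- 2 (edgeR adjusted p up to 0.165), with total counts and with RLE size factors. CPT1A lost its NLPC call without any 1 of the WT libraries (up to 0.0906) and its HLE-B3 call without any 1 library except QKI KO 2 (up to 0.212) and with DESeq2, and IPO5 lost its NLPC call without WT 3 (0.0695). The 50 nearest genes in HLE-B3 had medians of -0.44 for IPO5 and 0.26 for SLC7A11.
Mouse Cpt1a, chr19:3384283-3384305 (+ strand, GRCm38): TAACacacctgtaacacACTAAT
Human CPT1A, chr11:68524627-68524649 (- strand, GRCh37): TAACacatctggaatgcACTAAC
Mouse Hmgcs1, chr13:119707633-119707660 (+ strand, GRCm38): ACTAATgtacagaactaaatttctTAAC
Human HMGCS1, chr5:43290860-43290888 (- strand, GRCh37): ACTAATctccaattaaaaaatttttTAAC
Mouse Ipo5, chr14:120946813-120946838 (+ strand, GRCm38): TAACtaccacctgccagaagACTAAC
Human IPO5, chr13:98674084-98674108 (+ strand, GRCh37): TAATgtcacccaccagaaaACTAAC
Mouse Slc7a11, chr3:50366961-50366976 (- strand, GRCm38): ACTAATgaccctTAAT
Human SLC7A11, chr4:139092933-139092960 (- strand, GRCh37): ACTAATttctaagaaatttagttaTAAC
Mouse Fras1, chr5:96784175-96784190 (+ strand, GRCm38): TAATttggtgACTAAT
Human FRAS1, chr4:79464901-79464916 (+ strand, GRCh37): TAATttgatgACTAAT

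The element was more frequent in genes that were lower in NLPC, whichever way they moved in HLE-B3. Of the matched genes with a mouse 3′UTR, 31.2% held it, against 48.2% of the 996 genes lower in NLPC and 37.5% of the 630 higher. Pairs were held by 12.5% of all genes, 24.9% of those lower and 13.02% of those higher. Since 3′UTRs of changed genes were longer (median 1270 and 1543 bases, against 1006 for all), the density is also given. It was 0.519 elements per kb in genes lower in NLPC, 0.289 in genes higher and 0.339 in all. The reverse complement, GTTAGT or ATTAGT, had nearly the same density in the 3 sets, 0.381, 0.360 and 0.367 per kb, and the A and T content was 57.5%, 56.9% and 56.2%. The genes lower in both systems (0.477 per kb) and those lower in NLPC and higher in HLE-B3 (0.521) both lay above the genes higher in both (0.317) and those higher in NLPC and lower in HLE-B3 (0.236).

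In HLE-B3 the element was not denser in lower genes. In human 3′UTRs the density was 0.352 per kb in genes lower in HLE-B3, 0.386 in genes higher and 0.357 in all. The share of genes that held it was larger among those lower, 41.3%, against 36.5% of those higher and 35.4% of all. Pairs were held by 20.1%, 16.95% and 16.99%. The 3′UTRs of the lower genes were also longer, with a median of 1632 bases against 1187 and 1198. Genes were then divided into 3 equal bins by 3′UTR length. In NLPC, the share of genes called lower was 15.4% with an element and 6.13% without in the shortest bin. It was 15.3% and 6.88% in the middle bin, and 12.99% and 7.95% in the longest bin. In HLE-B3 these shares were 19.1% and 15.8%, 21.2% and 20.8%, and 27.1% and 26.2%. The share called higher in NLPC was 1.31% with and 3.86% without the element in the shortest bin, 5.65% and 5.14% in the middle bin, and 8.14% and 8.08% in the longest. Without the second Qk-/- library, 21.1% of genes with an element and 12.3% of those without were lower in NLPC, and with replicate number as a block the shares were 12.4% and 5.46%. The median log2 fold change of genes with an element was near that of the rest, -0.09 for genes with 1 element and -0.07 for genes with 0, and -0.13 for genes with a pair. Of the 7 genes named as lower in both, TNC, NRARP, NID2, ITGA7 and BRINP3 held no element in the mouse 3′UTR used, and neither did 10 of the 21 genes named for the other classes.

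**Figure D5:**
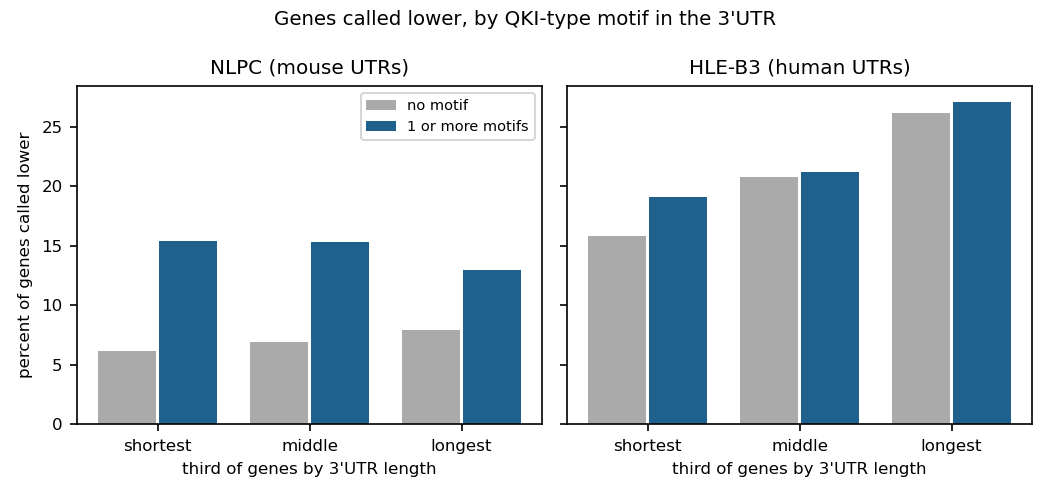
Bars give the percent of matched genes called lower after the deletion in NLPC (mouse 3′UTRs) and HLE-B3 (human 3′UTRs), for genes without (grey) and with (blue) an ACTAAC or ACTAAT element, within 3 bins of genes by 3′UTR length. In NLPC the blue bars stand at 12.99% to 15.41% and the grey ones at 6.13% to 7.95%, while in HLE-B3 the bars of each bin differ by less.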

How the data were processed

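RNA sequencing counts of 12 libraries were used, 3 WT and 3 deletion libraries in each of NLPC and HLE-B3. The deposited counts are whole reads per gene that the authors obtained with STAR 2.6.1b and HTSeq 0.11.0, and the submitters' processing notes also name HISAT2 2.0.4 and featureCounts, with no role given. Reads that could map to related genes or to overlapping genes may be split or lost by such counting. Genes were filtered with filterByExpr (minimum count 10, minimum total count 15), scaled by TMM and fitted on each whole table with edgeR 4.0.16 (quasi-likelihood, R 4.3.3). All p-values were adjusted by the Benjamini-Hochberg method over all genes tested, 20371 in NLPC and 19049 in HLE-B3. Genes with an adjusted p under 0.05 were called. The difference of the effects was tested as an interaction in 1 edgeR fit of the 11206 matched genes. The genes and lists were chosen with earlier results of these data known. Named genes are QKI, the cholesterol biosynthesis list, 7 genes of each class and 5 genes of each direction of the difference as described with the results, and at most 4 members of a list in each class. CRYAB, C3, SNAP25, INSIG1, INSIG2 and the genes of the printed sequences were singled out after their values were seen where they fall outside that rule. Deviations of same-numbered NLPC libraries correlated at 0.123, 0.320 and 0.145, but those of differently numbered ones ranged from -0.303 to 0.232, and nothing in the labels says that a number marks a pair, while same-numbered HLE-B3 libraries correlated at 0.0613, 0.0566 and -0.0495. The fits were tested on simulated data, where 200 of the 11206 matched genes were given a 2-fold change. Of those that were among the 11007 genes tested there, 65.5% were recovered in NLPC and 84.5% in HLE-B3. Alternatives included other scalings and filters, DESeq2 1.42.0, limma 3.58.1, a replicate block and leaving out each library. 3′UTRs were taken from the coding ends and transcripts of the reference annotations, 1 transcript a gene. Some genes of the lists are counted but not reported by name here.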

Additional observations from a re-analysis of the deposited data

Results flagged for a closer look

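The difference between the deletion effects in HLE-B3 and NLPC was itself called by the edgeR interaction test for 3842 of 11206 genes. Among the named genes with the largest differences (HLE-B3 minus NLPC, log2 scale, joint fit), those above 0 were 10.95 ± 0.51 for ZFP28, 10.95 ± 0.52 for NCAM2, 6.06 ± 0.32 for IL18, 5.25 ± 0.14 for ARRDC4 and 4.92 ± 0.44 for PPP2R2B. Those below 0 were -10.84 ± 1.19 for CRTAC1, -9.42 ± 0.23 for CPNE8, -9.25 ± 0.58 for NRN1, -9.15 ± 0.33 for WNK3 and -8.05 ± 0.67 for RPS6KA6. For the 6 of these genes with a group at or near 0 counts, NCAM2, ZFP28, CRTAC1, NRN1, WNK3 and RPS6KA6, the fitted value depends on the prior count and is no bound.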

How the results depend on the processing

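The class sizes rested mainly on how many genes were called in NLPC. With 1 library left out, the counts ranged from 65 to 303 for genes higher in both systems, 81 to 372 for genes lower in both, 62 to 342 for genes higher in NLPC and lower in HLE-B3, and 59 to 437 for the reverse. Calls in NLPC ranged from 222 to 1214 higher and 257 to 1685 lower, calls in HLE-B3 from 2089 to 2657 higher and 1793 to 2170 lower, and differences between the systems from 3055 to 4744. DESeq2 called 1253 genes higher and 1576 lower in NLPC, with 252 higher in both, 324 lower in both, 277 higher in NLPC and lower in HLE-B3 and 374 the reverse. An unadjusted p under 0.05 gave 1394 and 2374 in NLPC and 387, 584, 448 and 715 in the classes. A required change of 1.5-fold gave 590 lower in NLPC, 692 higher and 929 lower in HLE-B3, and 61, 78, 81 and 50 in the classes. With total counts alone, 141 genes were lower in NLPC and higher in HLE-B3. With the replicate block, the classes held 158, 213, 161 and 197 genes, and 11 of 296 values of named genes lost their call. The difference between systems was called for 1986 genes above and 1885 below with limma, 2733 and 1847 from the separate fits, and 1951 and 1531 with every gene of at least 1 count.

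Values near 0 changed sign. DHCR7 in HLE-B3 was -0.00454 with total counts and ranged from -0.0342 to 0.119 with 1 library left out. SC5D in HLE-B3 ranged from -0.119 to 0.0100. IDI1 in NLPC was -0.0175 with every gene of at least 1 count and ranged from -0.0354 to 0.0505. NCAM2 in NLPC was 0.0123 with RLE size factors, 0.0422 with total counts and 0.000825 with DESeq2, and ranged from -0.0883 to 0.0519. Of these values none was called. Why results moved between settings was not tested. The median SE of a log2 fold change was 0.149 in NLPC and 0.0870 in HLE-B3.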
